A study of Mus musculus with 9 samples.

Results

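A set of 8 genes that encode secreted proteins of mucosal defence were followed through 9 RNA-seq libraries: Sftpd, Wfdc18, Wfdc2, Lcn2, Ltf, Slpi, Pigr and Lyz2. They are 8 of the 23366 gene entries in the deposited count tables. The genes were chosen by name with their levels in these same 9 libraries already known, so their levels and fold changes are given as a description. Of the libraries, 6 came from mSGc, a line of epithelial cells from the submandibular glands of male C57BL/6 mice aged 12 weeks that became immortal spontaneously and was grown as monolayers. Of these, 4 were grown in Progenitor Media, at passages 2, 4, 10 and 25 (P2, P4, P10 and P25), and 2 in Differentiating Media, at P10 and P25, with 1 library per condition. The study describes a serum-free medium with dexamethasone and a serum-containing medium with retinoic acid, hydrocortisone and triiodothyronine, which are taken here as Progenitor Media and Differentiating Media, respectively, a reading that the labels do not spell out. The other 3 libraries were replicates of IMOK, an immortalised oral keratinocyte line of the same strain kept in a medium of its own, so line and medium cannot be told apart between IMOK and mSGc. The labels call the passage of IMOK early, with no number, while the study describes IMOK as matched in passage to the mSGc libraries labelled mid, so passage is a further difference between the lines that could not be settled. No label ties the 3 IMOK replicates to separate cultures, and p-values that use them may measure technical spread.

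Saliva and other mucosal fluids hold proteins that bind, starve or lyse microbes, and inhibitors that shield the epithelium from proteases of leukocytes. Lactoferrin (Ltf) withholds iron, and lipocalin 2 (Lcn2) captures the siderophores with which bacteria acquire it. Surfactant protein D (Sftpd) is a collectin that binds sugars on microbial surfaces, and lysozyme (Lyz2) cleaves bacterial cell walls. Slpi, Wfdc2 and Wfdc18 belong to the family of small proteins with a whey acidic protein (WAP) domain, of which Slpi is an inhibitor of neutrophil elastase. The polymeric immunoglobulin receptor (Pigr) carries IgA across the epithelium and is shed with it as the secretory component.

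The libraries held between 6237884 and 18444963 counted reads, so that 3 counts, the limit that a count of 0 allows, correspond to 0.163 to 0.481 CPM, the count scaled to the library total. Levels are given as TPM, which is scaled by gene length as well, computed from the deposited counts and gene lengths. All 7 epithelial markers (Epcam, Cdh1, Krt5, Krt14, Krt8, Krt18 and Trp63) reached 1 TPM in every library. A group of 3 libraries stood apart from the others in transcripts of salivary acinar cells. In P4 and in IMOK replicates 2 and 3, 6 of 8 acinar markers reached 1 TPM, against 1 to 3 in the other 6 libraries. Smr3a, a salivary secretory gene, was at 3.86, 71.7 and 81.3 TPM in those 3 libraries and had no counts in the others. Aqp5, the water channel of acinar cells, was highest in IMOK replicate 1, at 213 TPM. IMOK replicate 1 also differed from replicates 2 and 3, with a chi-square per degree of freedom over genes of 149.6 and 179.7, against 21.3 between replicates 2 and 3. Of the neutrophil markers, S100a9 and Elane had no counts in any library and the list summed to 0.124 to 2.52 TPM in mSGc and 0.160 to 0.348 TPM in IMOK. Of 11 macrophage markers, only Cd68 and Cd14 reached 1 TPM anywhere, Emr1 had no counts, and the list summed to 12.0 to 87.2 TPM in mSGc and 7.37 to 38.0 TPM in IMOK. Markers of B and plasma cells, fibroblasts and endothelium summed to at most 2.88, 22.6 and 0.945 TPM in any library, the second of these at P2.

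All 8 genes were placed on mm9, the build named by the submitters. Lcn2, Wfdc2 and Slpi lie on chromosome 2, at 32240157-32243259 (6 exons), 164388216-164394006 (5 exons) and 164179806-164182243 (4 exons). Wfdc18 lies on chromosome 11 at 83522506-83524862 (3 exons), Sftpd on chromosome 14 at 41985501-41998487 (8 exons), and Ltf on chromosome 9 at 110921796-110945270 (17 exons). Pigr lies on chromosome 1 at 132723261-132748826 (11 exons) and Lyz2 on chromosome 10 at 116714597-116719328 (4 exons). Of the windows of 50 bases in the exons of Lyz2, 115 of 861 (13.4%) are also found in Lyz1, a neighbouring lysozyme gene, so reads from them cannot be assigned to 1 of the genes with certainty. Pigr shared 18 of 3310 such windows with other genes, and the other 6 genes shared none.

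The 250 bases upstream of the annotated start are shown for 5 genes whose levels, given below, moved together or in opposite directions with medium or passage. The sequences were read 5′ to 3′ on the strand of the gene from NCBIM37, the assembly of mm9. Capitals mark a match, on either strand, to TTGCNNAA (the C/EBP family) in Lcn2, Ltf and Slpi and to TTCNNNGAA (STAT) in Sftpd. In Wfdc18 they mark a match to AGGAAGT, which members of the ETS family bind, and closer to the start a TATA box, searched as TATAAA. The windows are chr2:32243260-32243509 (minus strand), chr9:110921546-110921795 (plus strand), chr2:164182244-164182493 (minus strand), chr14:41998488-41998737 (minus strand) and chr11:83522256-83522505 (plus strand).
Lcn2: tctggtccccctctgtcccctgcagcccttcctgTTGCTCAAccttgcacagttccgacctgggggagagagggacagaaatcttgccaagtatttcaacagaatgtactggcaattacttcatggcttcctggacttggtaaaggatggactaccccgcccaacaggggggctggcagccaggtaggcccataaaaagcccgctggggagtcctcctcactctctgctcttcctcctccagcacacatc
Ltf: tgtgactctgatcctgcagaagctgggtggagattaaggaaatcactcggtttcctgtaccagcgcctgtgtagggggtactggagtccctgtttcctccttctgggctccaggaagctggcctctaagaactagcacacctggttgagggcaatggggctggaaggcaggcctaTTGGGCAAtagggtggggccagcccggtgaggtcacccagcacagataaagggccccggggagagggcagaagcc
Slpi: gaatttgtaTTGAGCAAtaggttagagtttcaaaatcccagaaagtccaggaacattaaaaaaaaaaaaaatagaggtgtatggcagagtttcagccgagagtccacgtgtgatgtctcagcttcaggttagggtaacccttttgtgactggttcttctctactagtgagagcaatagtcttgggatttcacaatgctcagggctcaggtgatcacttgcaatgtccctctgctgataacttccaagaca
Sftpd: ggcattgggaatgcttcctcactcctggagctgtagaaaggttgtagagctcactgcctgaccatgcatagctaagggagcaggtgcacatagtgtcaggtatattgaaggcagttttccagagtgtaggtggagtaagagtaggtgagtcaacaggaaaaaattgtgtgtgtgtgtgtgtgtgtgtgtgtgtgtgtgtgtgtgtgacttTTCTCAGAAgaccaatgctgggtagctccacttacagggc
Wfdc18: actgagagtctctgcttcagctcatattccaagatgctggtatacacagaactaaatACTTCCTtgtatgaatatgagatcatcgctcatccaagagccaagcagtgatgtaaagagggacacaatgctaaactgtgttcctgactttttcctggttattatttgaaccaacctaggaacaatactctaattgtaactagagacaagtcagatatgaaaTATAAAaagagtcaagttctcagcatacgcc
The C/EBP motif lay 216 to 209 bases before the start of Lcn2, 75 to 68 before that of Ltf and 241 to 234 before that of Slpi, and was found in 8.62% of the 23171 upstream windows of this length. The STAT motif lay 40 to 32 bases before the start of Sftpd and was found in 6.80% of windows. In Wfdc18 the ETS motif lay 193 to 187 and the TATA box 31 to 26 bases before the start, with shares of 7.52% and 12.0% of windows. The window of Lyz2 held the ETS motif and that of Pigr held TGTTCT, part of a glucocorticoid receptor site, which is found in 13.9% of windows. The window of Wfdc2 held none of the 6 motifs searched, and the NF-kappaB motif (4.07% of windows) was in none of the 8. None of the searched motifs overlapped another in these windows. A match is a string of letters and not a bound site.

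Of the protease inhibitors, Wfdc18 ranged most widely. Its level in Progenitor Media was 1606 TPM at P2, 267 at P4, 49.6 at P10 and 5.19 at P25, and in Differentiating Media it was 2337 TPM at P10 and 47.4 at P25. In IMOK replicates 1 to 3 it was 27.2, 0.853 and 1.15 TPM. The level in Progenitor Media was thus lower at each later passage, while P10 in Differentiating Media was the highest of all 9 libraries, where Wfdc18 ranked 70th of all gene entries by TPM. In 5 of the 6 mSGc libraries Wfdc18 was above the highest IMOK library, and in P25 in Progenitor Media it was not. Since bulk RNA was measured, fewer cells expressing a gene and less RNA per cell cannot be told apart.

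Wfdc2, by contrast, was abundant in every library. Its level was 567 TPM at P2, 673 at P4, 428 at P10 and 971 at P25 in Progenitor Media, 1724 at P10 and 1711 at P25 in Differentiating Media, and 872, 636 and 602 TPM in the IMOK replicates. Both Differentiating Media libraries were above the other 7, whose mSGc and IMOK values overlapped. Wfdc2 made up between 21.8% (P2) and 99.5% (IMOK replicate 3) of the summed TPM of the 8 genes.

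Slpi had its highest levels in Progenitor Media. It stood at 61.7 TPM at P2, 37.4 at P4, 242 at P10 and 107 at P25, against 31.4 TPM at P10 and 14.2 at P25 in Differentiating Media. The IMOK replicates had 46.2, 2.38 and 1.28 TPM. Both Differentiating Media libraries were below all 4 Progenitor Media libraries, the opposite order to that of Wfdc2, and IMOK replicate 1 lay among the mSGc libraries while the other 2 lay below them.

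Among the proteins that withhold iron, Lcn2 was at 309 TPM at P2, 96.7 at P4, 258 at P10 and 10.6 at P25 in Progenitor Media, and at 334 TPM at P10 and 6.72 at P25 in Differentiating Media. In IMOK it was at 101 TPM in replicate 1, with 735 counts, and had no counts in replicates 2 and 3. Both P25 libraries were thus below the other 4 mSGc libraries in either medium. Ltf stood at 5.17 TPM at P2, 16.9 at P4, 4.44 at P10 and 0.0429 at P25 in Progenitor Media, at 236 TPM at P10 and 0.813 at P25 in Differentiating Media, and at 4.37, 0.0846 and 0.0455 TPM in IMOK. A single library, P10 in Differentiating Media, held 4099 of the Ltf counts, while P25 had 1 and 7 counts in Progenitor and Differentiating Media.

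Sftpd, the collectin, was at 57.9 TPM at P2, 12.1 at P4, 0.492 at P10 and 0 at P25 in Progenitor Media, and at 34.6 TPM at P10 and 0 at P25 in Differentiating Media. The P25 libraries had no counts, which allows up to 0.194 CPM in Progenitor and 0.481 CPM in Differentiating Media. IMOK replicate 1 had 20 counts of Sftpd (1.77 TPM) and replicates 2 and 3 had none. Like Wfdc18, Sftpd was thus lower at P4 than at P2 and lower again at P10 in Progenitor Media, and was found again at P10 in Differentiating Media. Its step from P10 to P25 in Progenitor Media, from 3 counts to 0, was not detectable.

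Pigr and Lyz2 were near the limit of detection. Pigr had 0, 8, 2 and 0 counts at P2, P4, P10 and P25 in Progenitor Media, 38 counts (1.56 TPM) at P10 and 0 at P25 in Differentiating Media, and 2, 3 and 2 counts in IMOK. Lyz2 had 1 count at P2 and 1 at P4, none in the other 4 mSGc libraries, and 4, 0 and 2 counts in IMOK. Only P4 and P10 in Differentiating Media for Pigr, and IMOK replicate 1 for Lyz2, were above 3 counts. Lyz1 had 1 count in 1 IMOK library. Differences of Lyz2 were not detectable at this depth.

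**Figure D1:**
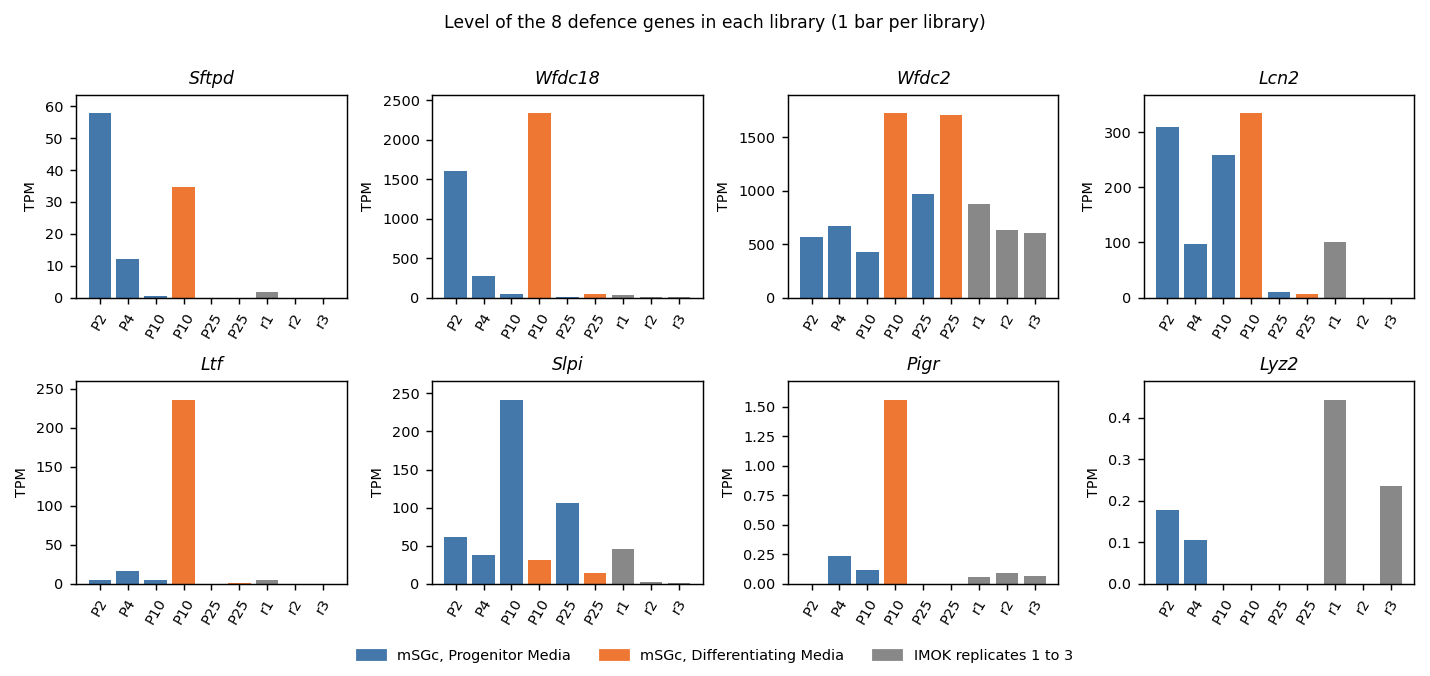
Level of each of the 8 genes (y axis, TPM, linear from 0, own scale per gene) in each of the 9 libraries (x axis, passage for mSGc and replicate for IMOK), 1 bar per library with no error. Wfdc18, Ltf and Pigr are highest at P10 in Differentiating Media (orange), Slpi at P10 in Progenitor Media (blue), and Lyz2 stays below 0.5 TPM throughout.

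To ask how the medium bears on these genes, libraries of the same passage were set side by side. At P10, Wfdc18, Ltf, Sftpd and Pigr were higher in Differentiating than in Progenitor Media, Wfdc2 was moderately higher, Lcn2 differed little and Slpi was lower. Each ratio is of CPM in 1 library to CPM in another, with an exact 95% interval that covers counting error only and no replicate check. Sftpd was 65.2-fold higher (22.1 to 318), from 3 and 290 counts. Wfdc18 was 43.7-fold higher (36.6 to 52.7) and Ltf 49.4-fold higher (37.9 to 65.5). These are the 3 genes with the largest ratios, and their intervals overlap with one another. Pigr was 12.8-fold higher (3.31 to 110), Wfdc2 3.73-fold (3.53 to 3.95) and Lcn2 1.20-fold (1.11 to 1.30). Slpi was 8.31-fold lower (7.07 to 9.82). Of the 7 genes with at least 10 counts in 1 of the pair, 4 were at least 4-fold higher, where the background over all such gene entries was 5.09%, and 1 was at least 4-fold lower, where it was 1.93%.

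At P25 the same side-by-side reading gave smaller ratios for the genes that were higher. Wfdc18 was 8.35-fold higher in Differentiating Media (5.24 to 13.8) and Wfdc2 1.61-fold higher (1.55 to 1.68). Ltf was 17.3-fold higher with a wide interval (2.23 to 781), from 1 and 7 counts, and Sftpd and Pigr had no counts in either medium. Slpi was 8.24-fold lower (5.97 to 11.7), close to its ratio at P10. Lcn2 was 1.73-fold lower in Differentiating Media (1.02 to 3.07), a direction opposite to that at P10, with 18 and 77 counts. Of the 4 genes with at least 10 counts, 1 was at least 4-fold higher, beside a background of 1.26%, and 1 at least 4-fold lower, beside 2.74%. The counting intervals of Wfdc18 and of Wfdc2 did not overlap between P10 and P25, and the difference between passages was not tested, since each condition has 1 library.

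In the fit over the 6 mSGc libraries with medium and the log2 of the passage number, 6 of the 8 genes passed the filter on low counts, and Pigr and Lyz2 did not. None of the 6 was called for medium with edgeR's quasi-likelihood test at an adjusted p under 0.05, where 3 of 12451 genes (0.0241%) were called. The fitted log2 difference, Differentiating minus Progenitor, was 4.99 for Wfdc18 (standard error 0.64), 5.77 for Sftpd (1.00), 5.79 for Ltf (1.55), 1.02 for Wfdc2 (0.37), 0.82 for Lcn2 (1.16) and -2.65 for Slpi (0.75). All but Lcn2, 5 of the 6, had an unadjusted p under 0.05, beside 8.18% of all genes, and DESeq2 called 3, beside 2.18%. When only P10 and P25 were fitted with passage as a block, which leaves 1 residual degree of freedom, edgeR called 3 of the 5 genes tested, beside 1.03% of all genes. These were Wfdc18 (log2 difference 4.54) and Ltf (5.51), both higher, and Slpi (-3.08), lower. Without the P10 library in Differentiating Media the fitted difference of Sftpd turned to -1.42 and that of Lcn2 to -2.98, while that of Ltf was 0.44 and that of Wfdc18 2.95, so the values of Sftpd and Ltf rest on that library. Of the macrophage markers, Cd14 was at 84.7 TPM at P10 in Differentiating Media and at 7.55 to 33.7 TPM in the other 5 mSGc libraries. Cd68 was at 1.88 TPM in the same library, its lowest in mSGc, and reached 4.10 TPM at P10 in Progenitor Media. At P10 in Differentiating Media Itgam and Fcer1g were at 0.169 and 0.480 TPM. Ptprc, Csf1r, Emr1, Tyrobp, C1qa, C1qb and Aif1 were at 0 TPM there. The part of such transcripts in the medium differences was not tested. The count of called genes was 1 without P10 in Progenitor Media (beside 0.466% of all genes) and 1 without P25 in Differentiating Media (beside 0.0907%).

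**Figure D2:**
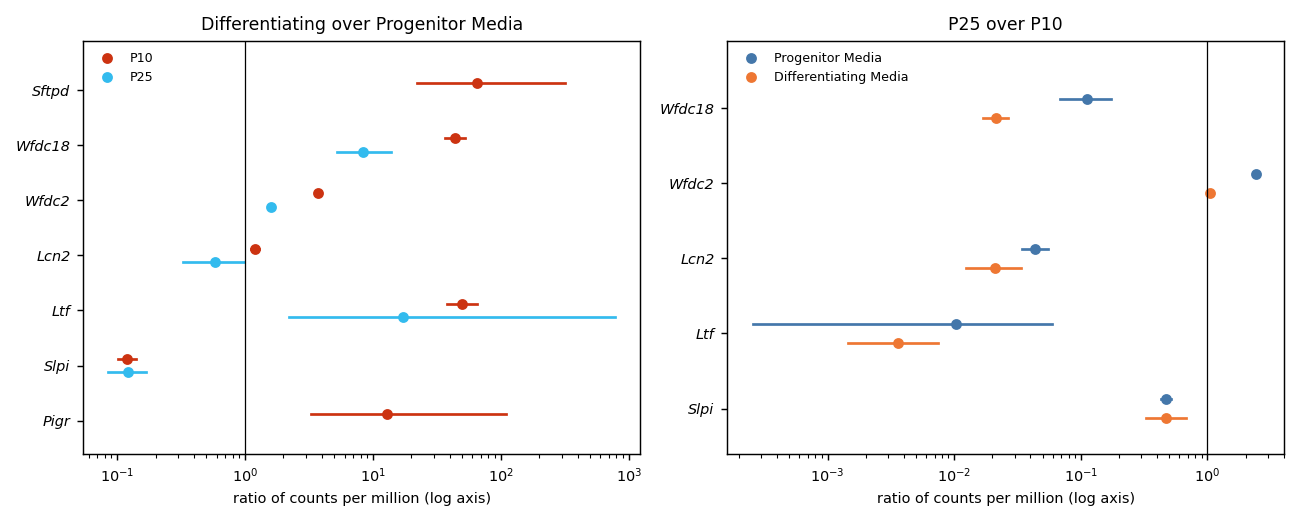
Ratio of CPM between single libraries (x axis, log scale) with exact 95% counting intervals (lines). Left, Differentiating over Progenitor Media at P10 (red) and P25 (light blue), right, P25 over P10 in Progenitor (blue) and Differentiating Media (orange), and pairs with a 0 count are left out. Slpi lies at the same place, 8.31- and 8.24-fold lower, at both passages, whereas Wfdc18 moves from 43.7- to 8.35-fold higher.

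Passage was addressed first along the 4 Progenitor Media libraries. Sftpd, Wfdc18, Lcn2 and Ltf were lower at P25 than at P2, and Wfdc2 and Slpi were higher. Sftpd was at least 155-fold lower at P25 by its exact interval, from 406 and 0 counts. Wfdc18 was 273-fold lower (184 to 427), Lcn2 25.7-fold lower (20.4 to 32.8) and Ltf 106-fold lower (18.5 to 4259), the last from 75 and 1 counts. Wfdc2 was 1.94-fold higher (1.84 to 2.04) and Slpi 1.96-fold higher (1.71 to 2.25). Thus 4 of the 6 genes with at least 10 counts in P2 or P25 were at least 4-fold lower, where the background was 9.42%.

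The route from P2 to P25 differed between genes. Wfdc18 was 5.57-fold lower at P4 than at P2, 5.48-fold lower at P10 than at P4 and 8.97-fold lower at P25 than at P10. Lcn2 was 2.96-fold lower at P4 than at P2, 2.63-fold higher at P10 than at P4 and 22.9-fold lower at P25 than at P10. Slpi was 6.37-fold higher at P10 than at P4 and 2.13-fold lower at P25 than at P10. Ltf was 3.54-fold higher at P4 than at P2 and 3.87-fold lower at P10 than at P4. Only Wfdc18 was therefore detectably lower at every step among the genes followed. Sftpd was lower at P4 and again at P10, and its last step, from 3 counts to 0, was not detectable.

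In Differentiating Media, where passage was sampled at P10 and P25, 5 of 7 genes were at least 4-fold lower at P25, beside a background of 8.46%. Ltf was 277-fold lower (134 to 689), Lcn2 47.4-fold lower (29.9 to 80.1) and Wfdc18 47.0-fold lower (37.8 to 59.2). Sftpd was at least 37.0-fold lower and Pigr at least 4.64-fold lower by their exact intervals, both with 0 counts at P25. Slpi was 2.11-fold lower (1.48 to 3.07), as it was in Progenitor Media between the same passages (2.13-fold). Wfdc2 differed little, with a ratio of 1.04. The P10 library in Differentiating Media was near P2 in some genes, with 1.07-fold the CPM of Lcn2 (0.994 to 1.14), 1.44-fold that of Wfdc18 (1.38 to 1.49) and 0.589-fold that of Sftpd (0.505 to 0.687). Others were not near P2. Ltf had 45.1-fold its CPM at P2 (35.9 to 57.4), Wfdc2 2.999-fold (2.86 to 3.15) and Slpi 0.502-fold (0.413 to 0.608). Pigr had 38 counts against 0, at least 8.09-fold higher by its exact interval.

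In the joint fit, the log2 change per doubling of the passage number was -2.37 for Wfdc18 (standard error 0.28) and -3.41 for Sftpd (0.44), and both were called lower. Of all genes tested, 55 of 12451 (0.442%) were called lower. The log2 change was -2.005 for Ltf (0.90), -1.11 for Lcn2 (0.61), 0.38 for Slpi (0.29) and 0.20 for Wfdc2 (0.13), none of them called by edgeR. DESeq2 called Ltf lower (-2.47) besides Wfdc18 and Sftpd, where 700 of 12451 genes were called in either direction. With 3 residual degrees of freedom and 1 library per condition, the p-values measure scatter about the fitted trend and not spread between replicates. The fit also takes the medium difference to be the same at every passage. Leaving out 1 library at a time moved the log2 change between -3.60 and -1.37 for Ltf and between -2.15 and -0.55 for Lcn2. Neither Wfdc18 nor Sftpd stayed called when P2, P4 or P25 in Progenitor Media was left out, with log2 changes, in that order, of -2.55, -2.41 and -2.53 for Wfdc18 and -4.49, -3.48 and -3.37 for Sftpd. Over all genes, those fits called 0 of 12359, 2 of 12223 and 0 of 12280, so the loss of the calls says little about Wfdc18 or Sftpd. The sum of the fibroblast markers was also highest at P2, at 22.6 TPM. In mSGc, Col1a2 (9.88 TPM), Col1a1 (6.68), Thy1 (3.92) and Pdgfra (0.252) were highest at P2. Others of that list were highest in Differentiating Media, Dcn at P10 (3.79 TPM) and Col3a1 and Lum at P25 (2.29 and 0.460 TPM). The part of these transcripts in the passage differences was not tested.

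Between the lines, all 6 genes that could be tested had higher fitted means in mSGc than in IMOK, beside 50.2% of all genes. None of the 6 was called by edgeR, where 1918 of 12885 genes (14.9%) were called in either direction. The ranges of mSGc and IMOK overlapped in each of the 8 genes, and the share of all genes with overlapping ranges was not computed. The log2 difference, mSGc minus IMOK, was 6.38 for Wfdc18 (standard error 2.13), 5.05 for Sftpd (2.31), 5.03 for Ltf (2.35), 2.65 for Slpi (1.22), 2.58 for Lcn2 (1.76) and 0.75 for Wfdc2 (0.44). In that fit mSGc libraries of all passages and both media stand as replicates, so the standard errors include differences of passage and medium. The absence of calls therefore does not show that the lines were alike. Only Wfdc18 had an unadjusted p under 0.05, beside 30.4% of all genes, and it was the 1 gene that DESeq2 called, beside 22.5%. Without P25 in Progenitor Media, Wfdc18 was called by edgeR as well (log2 difference 6.64), beside 13.2%. Without P10 in Differentiating Media the log2 difference of Ltf was 2.23. With P10 mSGc alone set against IMOK, none of the 6 was called, beside 4.2% of all genes.

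The IMOK replicates were uneven in 5 of these genes. Of the 6 genes with at least 10 counts in an IMOK library, 5 were at least 4-fold higher in replicate 1 than in the higher of replicates 2 and 3 (Wfdc18, Sftpd, Lcn2, Slpi and Ltf), beside a background of 7.6%. The other gene, Wfdc2, was at 872 TPM against 636 and 602. Summed over the 8 genes without Wfdc2, replicate 1 held 181 TPM and replicates 2 and 3 held 3.41 and 2.77 TPM. Without replicate 1, Lcn2 and Slpi were called higher in mSGc, with log2 differences of 12.88 and 5.65, beside 14.7% of all genes called. Those of Wfdc18, Sftpd and Ltf were then 9.47, 10.22 and 9.25, and were not called. The values of Lcn2 and Sftpd depend on the prior count, since the other 2 IMOK libraries had no counts. When the 3 libraries with acinar transcripts (P4 and IMOK replicates 2 and 3) were left out, a choice made after seeing the data, none was called, beside 1.64% of all genes, and the log2 differences ran from 0.62 (Wfdc2) to 5.10 (Wfdc18). That fit sets 5 mSGc libraries against IMOK replicate 1 alone, which is assumed to vary as mSGc do, so the absence of calls says little. Of the markers of other cells, Cd68 was lower and Cd14 higher in mSGc (log2 differences -2.26 and 3.43), and Aqp5 and Smr3a were lower (-3.44 and -5.81). The part of these transcripts in the difference between lines was not tested.

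**Figure D3:**
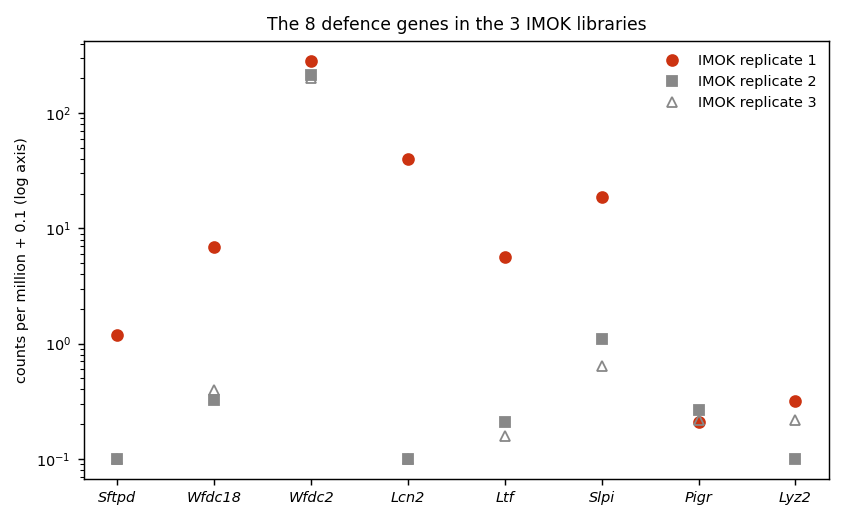
CPM plus 0.1 (y axis, log scale) of the 8 genes (x axis) in the 3 IMOK libraries, 1 symbol per library, with a count of 0 drawn at 0.1. Replicate 1 (red) lies above replicates 2 and 3 (grey, overlapping at 0 for Sftpd and Lcn2) in Sftpd, Wfdc18, Lcn2, Ltf and Slpi, and close to them in Wfdc2 and Pigr.

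The 7 genes with at least 10 counts in an mSGc library were also compared by the correlation of log2(CPM + 1) over the 6 mSGc libraries, which share passages and media and are given without a test. Sftpd and Wfdc18 had a Pearson's r of 0.949, and Ltf and Pigr 0.929, both highest at P10 in Differentiating Media. Wfdc18, Sftpd, Lcn2 and Ltf had an r between 0.710 (Sftpd and Ltf) and 0.949 with each other. Wfdc2 and Slpi ran opposite, with an r of -0.74, as did Wfdc2 and Lcn2 with -0.53. The median over all pairs was 0.393. The 3 genes with a C/EBP motif had r of 0.715 (Lcn2 and Ltf), 0.312 (Lcn2 and Slpi) and -0.25 (Ltf and Slpi).

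**Figure D4:**
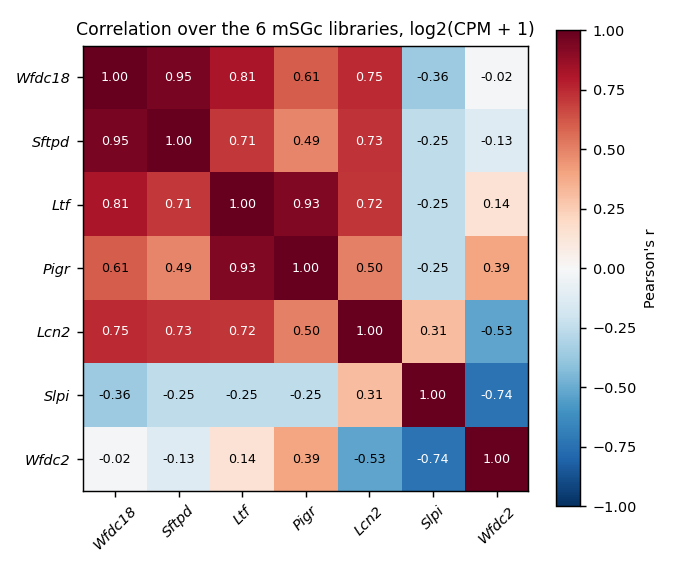
Pearson's r of log2(CPM + 1) over the 6 mSGc libraries for each pair of 7 genes (colour and number, from -1 in blue to 1 in red). Wfdc18, Sftpd, Ltf, Pigr and Lcn2 form a block of positive values, and Wfdc2 with Slpi is the most negative pair at -0.74.

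Among 9589 expressed genes, those most like each gene in pattern over the 6 mSGc libraries were picked by the same measure. They were Dusp8 and Dhx32 for Sftpd (r of 0.995 each), Cytip and Cgnl1 for Wfdc18 (0.994 and 0.991), Zfp326 and Shcbp1 for Wfdc2 (0.993 and 0.989), and Lmo4 and Btg2 for Lcn2 (0.992 each). For Ltf they were Ces1d and Ppfibp2 (0.986 and 0.985), for Slpi Tmem192 and Pqlc3 (0.995 and 0.994), and for Pigr Cd24a and Slco1a5 (0.994 and 0.988). With 6 libraries such values are common: between 19 and 96 genes had an r over 0.95 with each of the 7. Cytip, for example, was at 54.0, 8.12, 2.12 and 0.0615 TPM at P2, P4, P10 and P25 in Progenitor Media and at 61.7 and 0.888 TPM at P10 and P25 in Differentiating Media.

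A wider set of 133 genes of mucosal defence, listed by function, gave the setting of these 8. Between the lines 57 of them could be tested, of which 7 were higher and 5 lower in mSGc by edgeR's adjusted p, and the median log2 difference was 0.39, against 0.00 over all genes. Defb1, an epithelial beta-defensin, was higher, at 2.05 to 78.8 TPM in mSGc and 0.380 to 2.31 TPM in IMOK, ranges that overlap (log2 difference 5.01, standard error 1.07, adjusted p = 0.0138). The WAP-domain gene Wfdc3 was higher as well, at 10.9 to 47.6 TPM against 0.152 to 3.15 TPM with no overlap (4.39, standard error 0.91, adjusted p = 0.0121). The ribonucleases Rnase4 and Ang, the receptors Tlr4 and Ifngr1 and the adaptor Myd88 were higher by 1.82, 1.88, 1.01, 1.01 and 1.06 on the log2 scale. Lower in mSGc were the flagellin receptor Tlr5 (-4.12), Sirpa (-4.19), a receptor that binds surfactant protein D, the interleukin 1 receptor Il1r1 (-1.67), Irf1 (-1.09) and the protease inhibitor Spint1 (-0.94). Without IMOK replicate 2 or 3 the number called fell to 3 and 4, while the share of all genes called fell to 5.61% and 7.14%.

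By group, and beside the 14.9% of all genes called in this comparison, 2 of 4 tested WAP and Kunitz inhibitors were called (1 higher, 1 lower), 3 of 11 antimicrobial and acute phase proteins (all higher), 6 of 28 regulators (3 higher, 3 lower) and 1 of 8 receptors and partners (lower). The 1 collectin, the 2 mucins and the 3 genes of immunoglobulin transport that were tested were not called. For medium, 0 of 55 listed genes were called by edgeR, 13 had an unadjusted p under 0.05 and DESeq2 called 5, beside 0.0241%, 8.18% and 2.18% of all genes. For passage 2 of 55 were called, beside 61 of 12451 genes. Both were lower with passage: Mal2, a protein of transcytosis (-0.83 per doubling), and Tlr3, a receptor for double-stranded RNA (-0.93). No listed gene was called without P2, P4, P25 in either medium or P10 in Differentiating Media. Over all genes, 0 were called without P2 and 2 without P4. Without P25 in Progenitor or Differentiating Media 0 and 31 were called, and without P10 in Differentiating Media 32. Mal2 was at 99.5, 77.1, 23.6 and 11.8 TPM at P2, P4, P10 and P25 in Progenitor Media and at 160 and 84.2 TPM in Differentiating Media. Tlr3 was at 108, 26.6, 15.9 and 8.29 TPM in the same Progenitor Media libraries, and at P10 in Differentiating Media it was at 79.3 TPM.

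Several listed genes that passed 100 TPM in a library were highest in 1 or 2 of the libraries. Hp, which encodes the haemoglobin-binding haptoglobin, was at 341 TPM at P10 in Differentiating Media and at most 14.2 TPM in any other library. The ETS factor Ehf was at 58.6, 28.4, 24.8 and 0.268 TPM at P2, P4, P10 and P25 in Progenitor Media and at 146 and 2.03 TPM in Differentiating Media. Elf3, another epithelial ETS factor, was at 117 and 54.9 TPM in Differentiating Media and at 7.29 to 24.0 TPM in Progenitor Media. Cebpd, of the C/EBP family, was highest at P10 in Progenitor Media (154 TPM), as was Slpi. Lcn2 and Ltf, which also hold a C/EBP motif upstream, were highest at P10 in Differentiating Media, where Cebpd was at 55.1 TPM. In IMOK Cebpd was at 34.0, 1.80 and 2.15 TPM. Its relative Cebpb was at 117 TPM at P10 in Progenitor Media and at 140, 44.3 and 32.3 TPM in IMOK. These genes were not called for medium or passage. Bpifa2, a protein of parotid saliva, was at 15.8 TPM at P4 and at 158 and 175 TPM in IMOK replicates 2 and 3, with no counts elsewhere, as was Smr3a.

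The remaining listed genes above 100 TPM are given by their ranges. Spint2, a Kunitz inhibitor of epithelial proteases, was at 190 to 497 TPM in mSGc and 205 to 352 TPM in IMOK, and its relative Spint1 at 40.5 to 112 and 130 to 192 TPM. The protease inhibitor cystatin C (Cst3) was at 47.2 to 213 TPM in mSGc and 287 to 477 TPM in IMOK, a separation with no overlap that was not called. Rnase4 was at 60.6 to 181 TPM against 22.2 to 53.7 TPM. The transferrin receptor Tfrc was at 34.9 to 252 TPM in mSGc and 28.2 to 224 TPM in IMOK, and granulin (Grn), a substrate of elastase that Slpi protects, at 48.5 to 155 and 42.2 to 184 TPM. Anxa2 and Calr reached 3917 and 2092 TPM, and Ap1m2, Nfkbia, Rela, Stat3 and Tnfrsf1a 123, 117, 109, 102 and 142 TPM.

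**Figure D5:**
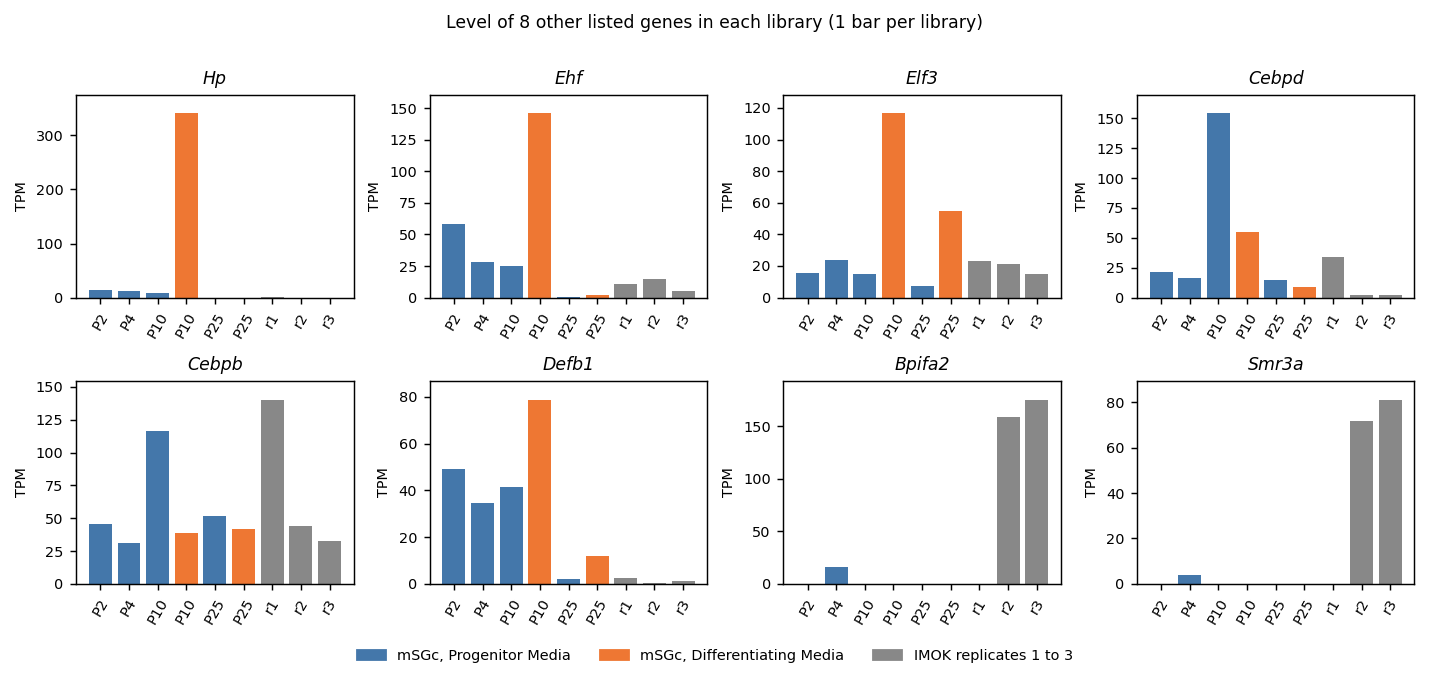
Level of 8 further genes (y axis, TPM, linear from 0, own scale per gene) in each of the 9 libraries (x axis, as for the 8 defence genes), 1 bar per library with no error. Hp and Ehf are highest at P10 in Differentiating Media, Cebpd at P10 in Progenitor Media, and Bpifa2 and Smr3a have counts only in P4 and IMOK replicates 2 and 3.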

How the data were processed

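RNA from 6 mSGc and 3 IMOK libraries (TruSeq RNA kit) was analysed. Per the submitters' processing notes, the authors aligned reads with TopHat2 2.1.1 and Bowtie2 2.2.6 to mm9 and counted them with featureCounts 1.5.1. The deposited tables hold raw counts for 23366 entries, and no deposited column was left unused. Strandedness, annotation and the handling of multimapping reads are not given in the sources used here. Names turned into dates (27 entries) and 4 entries with a repeated name were kept in totals.

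CPM used the library total, and TPM the deposited gene lengths. Counts were fitted in R 4.3.3 with edgeR 4.0.16 (quasi-likelihood test, TMM, filterByExpr, Benjamini-Hochberg at 0.05) over all genes, as mSGc against IMOK and, within mSGc, as medium with the log2 passage number. Every adjusted p-value is from edgeR unless DESeq2 1.42.0 is named. Standard errors are the absolute log2 fold change over the square root of F. The tests were also run on simulated counts with planted changes. Those counts were drawn independently per library with the spread typical of a gene's level. The run therefore does not cover technical replicates or genes that vary more widely. Ratios of single libraries carry exact 95% counting intervals, which cover counting error only. A 4-fold background counts entries with at least 10 counts in a library of the pair. Upstream windows were read from NCBIM37, in which 50 of 50 introns of the 8 genes had GT-AG ends and 0 of 23174 placed genes ran past a chromosome end.

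The genes, lists and tests were chosen with earlier results of these data known. Named besides the 8 genes are listed genes called in a fit or at 100 TPM in a library, the markers that stood apart, and the 2 genes most alike in pattern among those with at least 10 TPM in an mSGc library. The alternatives were DESeq2, library size without TMM, no filter, leaving out each library, P10 mSGc only, P10 and P25 with passage as a block, Progenitor Media only, untransformed passage number, other scalings of the ratio of P25 to P2 and, for correlations, a pseudocount of 0.1 and Spearman's rho. Leaving out the libraries with acinar transcripts was added after the data were seen.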

Additional observations from a re-analysis of the deposited data

Results flagged for a closer look

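Lcn2 was the 1 gene of the 8 whose ratio of Differentiating to Progenitor Media lay on opposite sides of 1 at both passages with counting intervals that excluded 1. The ratio of CPM was 1.20 (1.11 to 1.30) at P10, from 1803 and 1014 counts, and 0.579 (0.326 to 0.976) at P25, from 18 and 77 counts. Each condition has 1 library, so the difference between passages was not tested.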

How the results depend on the processing

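Replicate numbers pair no libraries here, and the media were paired by passage in 1 alternative. With DESeq2, 1 of the 8 genes was called between lines, 3 for medium and 3 for passage, against 0, 0 and 2 with edgeR. Of the listed genes DESeq2 called 19, 5 and 11, against 12, 0 and 2. Over all genes it called 2900 of 12885, 271 of 12451 and 700 of 12451, against 1918, 3 and 61. Without a filter on low counts 1 gene and 2 listed genes were called for medium, beside 36 of all 17402 genes. When P10 and P25 alone were fitted, with a passage block, 3 genes and 6 listed genes were called for medium, beside 1.03% of all genes. With P10 mSGc only, 2 listed genes were called between lines, beside 4.2% of all genes. For passage, 0 listed genes were called in Progenitor Media only and 1 with the untransformed passage number, beside 31 of 12285 and 126 of 12451 genes. Leaving out each library in turn gave 0 to 2 of the 8 genes between lines, 0 to 1 for medium and 0 to 2 for passage, and 3 to 13, 0 to 1 and 0 to 4 listed genes. Over all genes the same fits called 738 to 1918, 0 to 58 and 0 to 329. Of the fitted log2 values, 185 of 209 kept their direction and side of the threshold, and 4 changed direction. For medium, leaving out each library in turn gave -1.42 to 6.44 for Sftpd and -2.98 to 2.43 for Lcn2, both lowest without P10 in Differentiating Media, and Lcn2 was at -0.14 with the passage block. For passage, Wfdc2 ran from -0.082 (without P25 in Progenitor Media) to 0.25. Their causes were not tested. The ratio of P25 to P2 of Wfdc2 was 2.12 with TMM scaling and 1.71 in TPM, against 1.94. The median correlation was 0.327 with a pseudocount of 0.1, 0.143 with Spearman's rho and 0.172 to 0.427 without 1 library each. Depth limits Pigr, Lyz2 and, at P25, Sftpd and Ltf, which had at most 7 counts there.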
